A study of Homo sapiens with 32 samples.

Results

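Tubulin genes were followed through release of human HUH7 hepatoma cells, an established liver cancer line, from a block of their microtubules. The set was chosen by symbol and held the alpha-tubulin genes TUBA1A, TUBA1B and TUBA1C, the beta-tubulin genes TUBB, TUBB2A, TUBB2B, TUBB3, TUBB4B and TUBB6, and the gamma-tubulin gene TUBG1. These are 10 of the 24242 genes with a value, measured through 30 of 48205 RefSeq transcripts. All 10 were among the 22940 genes with at least 1 FPKM (fragments per kilobase of gene model, by its name scaled to the reads of a library) in at least 3 groups. These genes were used for every background below.

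New RNA was labelled with 5-ethynyl uridine (EU), a uridine analogue that cells build into transcripts, so that RNA made during the pulse could be captured on beads. Cells of the 6 release groups were grown in 2 mM thymidine for 24 hours, without it for 2 hours and in nocodazole at 0.06 ug/mL for 16 hours. The rounded mitotic cells were shaken off, washed and plated again, and 0.5 mM EU was given for 40 minutes at 0, 40, 80, 105, 165 or 300 minutes of release. The comparison group was an asynchronous culture given the same EU pulse. The sources used here do not give whether a stated time starts or ends the pulse. For each of these 7 groups 3 samples are listed, but the values used here are 1 authors' value per group. Nothing says whether the 3 samples were separate cultures. No difference below therefore has a replicate error or a test, and sizes alone are described. The table has no column named for the unlabelled or the spike-in samples, which were not analysed here, and the background without label is unknown. A later set of asynchronous samples carried spike-in RNA, and whether the asynchronous column includes them could not be settled, which touches every comparison with that culture. How the authors scaled the columns is not given. FPKM summed over all genes with a value came to 3.02e+06 at 0 minutes, 5.10e+06 at 80 minutes and 4.22e+06 in the asynchronous culture. Whether these sums differ through scaling or through labelled RNA was not tested. If FPKM are relative to the other captured RNA, as the name implies, a change in total transcription would not show. In any comparison of release with the asynchronous culture, drug treatment, cell cycle stage and collection by shake-off cannot be told apart.

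Alpha- and beta-tubulin form a dimer, and these dimers assemble head to tail into microtubules, the filaments of the interphase network and of the mitotic spindle. Gamma-tubulin sits in a ring complex from which new microtubules grow. Nocodazole binds beta-tubulin and keeps dimers from assembling, which raises the pool of free dimer in a cell. Cells are known to answer a rise in free dimer by degrading tubulin mRNA on the ribosome: TTC5 recognises the first residues of a nascent tubulin chain, and with SCAPER it brings the CCR4-NOT deadenylase to the mRNA. This is background and was not measured here.

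The start of the coding sequence is shown for all members because that recognition reads the peptide it encodes. The first 30 bases are given 5′ to 3′ from GENCODE release 29 transcripts (GRCh38), with the first 12 in capitals.
TUBA1A: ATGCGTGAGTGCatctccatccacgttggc
TUBA1B: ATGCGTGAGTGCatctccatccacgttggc
TUBA1C: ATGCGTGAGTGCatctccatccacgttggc
TUBB: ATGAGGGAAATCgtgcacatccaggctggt
TUBB2A: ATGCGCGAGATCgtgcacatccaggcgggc
TUBB2B: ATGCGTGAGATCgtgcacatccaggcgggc
TUBB3: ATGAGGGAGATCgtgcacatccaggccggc
TUBB4B: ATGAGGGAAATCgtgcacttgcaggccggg
TUBB6: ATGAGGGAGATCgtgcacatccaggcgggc
TUBG1: ATGCCGAGGGAAatcatcaccctacagttg
The 3 alpha genes are identical over these 30 bases. Among the beta genes, TUBB shares its first 12 with TUBB4B, and TUBB3 shares its first 12 with TUBB6. Over these 12 bases all beta genes encode the same residues, Met-Arg-Glu-Ile, and differ only in synonymous codons. TUBG1 has a start of its own. Whole coding sequences were 95.9% to 97.2% identical among the alpha genes and 98.1% identical between TUBB2A and TUBB2B. Every other pair of beta genes was 80.9% to 87.7% identical. TUBG1 matched the others at 49.9% to 54.5% of aligned positions.

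Near-identical copies limit what single values can say. Windows were taken from spliced transcripts, so introns, which the values also cover as described below, were left out. Of all 50-base windows in the transcript of TUBB2A, 65.5% also occurred in transcripts of other genes, 60.3% in TUBB2B. The share was 62.7% for TUBA1B, 52.2% for TUBB2B, 41.1% for TUBA1A, 29.9% for TUBG1, most of it with its paralog TUBG2, and 25.1% for TUBA1C. It was 18.2% for TUBB, 9.89% for TUBB4B and 0.993% for TUBB6. TUBB3 shared 89.4% of its windows with 1 annotated readthrough gene that overlaps it. The sources used here do not give how reads were divided between such copies, and the split among TUBA1A, TUBA1B and TUBA1C and between TUBB2A and TUBB2B is uncertain. The 3′ end of TUBB4B overlaps CIMIP2A and that of TUBB6 overlaps AFG3L2, with the use of strand in counting likewise not given.

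A shared course was seen in 8 of the 10 genes. Labelled RNA of TUBA1A, TUBA1B, TUBA1C, TUBB, TUBB2A, TUBB2B, TUBB3 and TUBB4B was higher at each step from 0 to 40 to 80 minutes, lower at each step from 80 to 105 to 165 minutes, and higher again at 300 than at 165 minutes. Over all genes, 1693 of 22940 (7.38%) had that course. For TUBA1C the last step was 1.02-fold and turned sign when columns were scaled to equal medians, which left 7 genes with the course; after quantile normalization there were 8. The highest value of the release was at 80 minutes for 7 genes (23.1% of all genes), at 165 minutes for TUBB6 and at 300 minutes for TUBB and TUBG1.

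**Figure D1:**
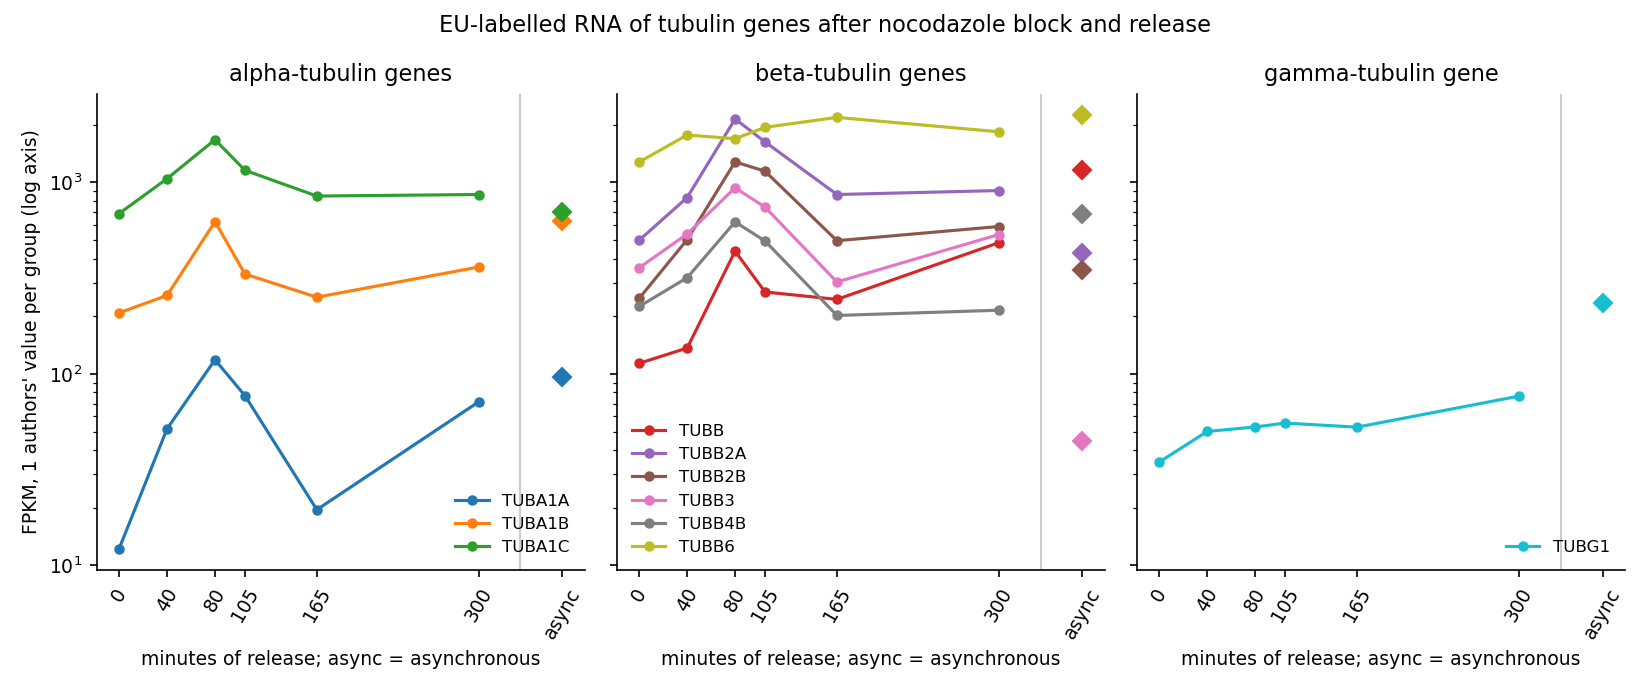
Labelled RNA of the 10 tubulin genes in FPKM on a log axis, by minutes of release, with the asynchronous culture as a diamond at the right of each panel; each point is 1 authors' value per group. Of the 10 lines, 7 have their highest point at 80 minutes, while TUBB6 is highest at 165 and TUBB and TUBG1 at 300 minutes.

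Among the alpha genes, TUBA1A, known for its high level in developing neurons, had the widest range. Its level was 12.3 FPKM at 0 minutes, 51.7 at 40, 119 at 80, 77.0 at 105, 19.5 at 165 and 71.4 at 300 minutes, against 96.4 in the asynchronous culture. It was thus low at the block, highest at 80 minutes, and low a second time at 165 minutes. TUBA1B, a widely expressed alpha-tubulin gene, stood at 208, 257, 624, 332, 251 and 362 FPKM over the same 6 times and at 630.5 in the asynchronous culture. Its value at 80 minutes was close to the asynchronous one, and every other release value was further below it. TUBA1C, also widely expressed, stood at 688, 1046, 1672, 1157, 849 and 865 FPKM and at 701 in the asynchronous culture. It was the alpha gene whose level at the block was nearest to that of cycling cells.

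TUBA1C has RefSeq transcripts from an upstream and a downstream start, and their values differ. At 0 minutes the 4 transcripts from upstream starts stood at 236 FPKM and the transcript from the downstream start at 1140 FPKM, a ratio of 4.83. The 2 spans, 46675 and 9519 bases in GRCh38, differ by 4.90-fold. The ratio of values stayed between 4.83 and 5.23 over all 7 groups. Values in this table follow the whole span of a gene, introns included: of 356 pairs of transcripts with the same span but different spliced length, 339 (95.2%) had identical values. The level of TUBA1C above, a mean of both values, therefore depends on the models averaged, whereas its course moved little.

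The beta genes included the members with the highest FPKM. TUBB6, a widely expressed beta-tubulin gene, stood at 1279, 1770, 1691, 1940, 2186 and 1839 FPKM over the release and at 2245 in the asynchronous culture. It was the highest of the 10 genes in every group except 80 minutes, where TUBB2A was higher. TUBB2A, a gene known from brain but found in many tissues, stood at 499, 834, 2143, 1628, 865 and 907 FPKM against 426 in the asynchronous culture. All 6 of its release values lay above the asynchronous one. Its near copy TUBB2B stood at 248, 503, 1280.4, 1144, 496 and 589 FPKM against 349. This gene was below the asynchronous value at 0 minutes and above it from 40 minutes on.

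TUBB, which encodes the common beta-tubulin of dividing cells, stood at 114, 137, 437, 268, 245 and 484 FPKM against 1165 in the asynchronous culture. None of its release values reached 50% of the asynchronous level, and the nearest was 41.5% at 300 minutes. TUBB4B, another widely expressed gene, stood at 225, 318, 622, 494, 202 and 215 FPKM against 686. It came to 90.6% of the asynchronous level at 80 minutes and was back at 31.3% at 300 minutes. TUBB3, used as a neuronal marker but also found in tumour lines, stood at 359, 538, 937, 743, 302 and 534 FPKM against 44.4. Every release value of TUBB3 was at least 6.67-fold above the asynchronous one.

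TUBG1, the gamma-tubulin gene, had the lowest levels of the set at 40, 80 and 105 minutes. It stood at 34.7, 50.1, 52.8, 55.4, 52.7 and 76.5 FPKM over the release, against 235 in the asynchronous culture. Its release values differed little from 40 to 165 minutes and reached 32.6% of the asynchronous level at most.

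Which tubulin genes were labelled above or below the cycling level at the block is the question of 0 minutes against the asynchronous culture. Folds here and below are ratios of FPKM + 1, which understates differences of low genes. TUBB was 10.2-fold lower, TUBA1A 7.35-fold lower, TUBG1 6.61-fold lower, TUBB4B 3.04-fold lower and TUBA1B 3.02-fold lower. The size for TUBB depends on the models averaged. Values were 135 against 1146 FPKM from its upstream RefSeq start and 92.0 against 1185 from its downstream one. TUBB3 was 7.92-fold higher. Among all genes ranked by this ratio, TUBB stood at percentile 0.99, TUBA1A at 1.33, TUBG1 at 1.495 and TUBB3 at 99.1. So 5 of 10 were at least 2-fold lower, against 19.0% of all genes, and 1 of 10 at least 2-fold higher, against 14.1%. The median log2 ratio of the members was -1.20, that of all genes -0.14. With equal column medians they were -0.85 and 0.19, with 5271 genes higher and 2464 lower in place of 3239 and 4349, and after quantile normalization -0.70 and 0.01, with 2751 and 2737. TUBA1B was under 2-fold after quantile normalization. TUBB6 was 1.76-fold lower and TUBB2A 1.17-fold higher. TUBB2B was 1.40-fold lower, a difference that turned sign after quantile normalization. TUBA1C was 1.02-fold lower, which turned sign there and with equal column medians.

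Early release was read from 40 and 80 against 0 minutes, comparisons that share the 0 minute values with each other and with the one above. At 40 minutes all 10 values were above those at 0 minutes. Most genes were higher as well, with percentile 25 of all log2 ratios at -0.084 and the median at 0.10. At least 2-fold higher were 2 of 10 members, against 3.24% of all genes, and 0 were lower (2.05%). TUBA1A was 3.98-fold higher and TUBB2B 2.02-fold higher, the latter under 2-fold after either rescaling. The other 8 were 1.20-fold (TUBB) to 1.67-fold (TUBB2A) higher, and the median log2 ratio was 0.55 against 0.10 for all genes. After quantile normalization these medians were 0.23 and -0.03.

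At 80 against 0 minutes, 8 of 10 were at least 2-fold higher, against 20.1% of all genes, and 0 lower (2.65%). TUBA1A was 9.02-fold higher, TUBB2B 5.14-fold, TUBB2A 4.28-fold and TUBB 3.83-fold. TUBA1B was 2.98-fold, TUBB4B 2.75-fold, TUBB3 2.61-fold and TUBA1C 2.43-fold higher, and these 4 were under 2-fold after quantile normalization, where the count was 4. TUBB3 and TUBA1C were also under 2-fold with equal column medians, where the count was 6. TUBG1 was 1.51-fold higher. TUBB6 was 1.32-fold higher in the deposited values, a sign that quantile normalization turned. The members' median log2 ratio was 1.52, that of all genes 0.31. Rescaling moved both: they were 1.12 and -0.06 with equal column medians, and 0.60 and -0.07 after quantile normalization. Counts over all genes past 2-fold were 4613 higher and 609 lower as deposited, 2125 and 1404 with equal column medians, and 1630 and 1098 after quantile normalization. Relative to the all-gene median, 7 of 10 members were at least 2-fold higher. The lowest of these 7, TUBB3, stood at percentile 90.7 among all genes ranked by this ratio.

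**Figure D2:**
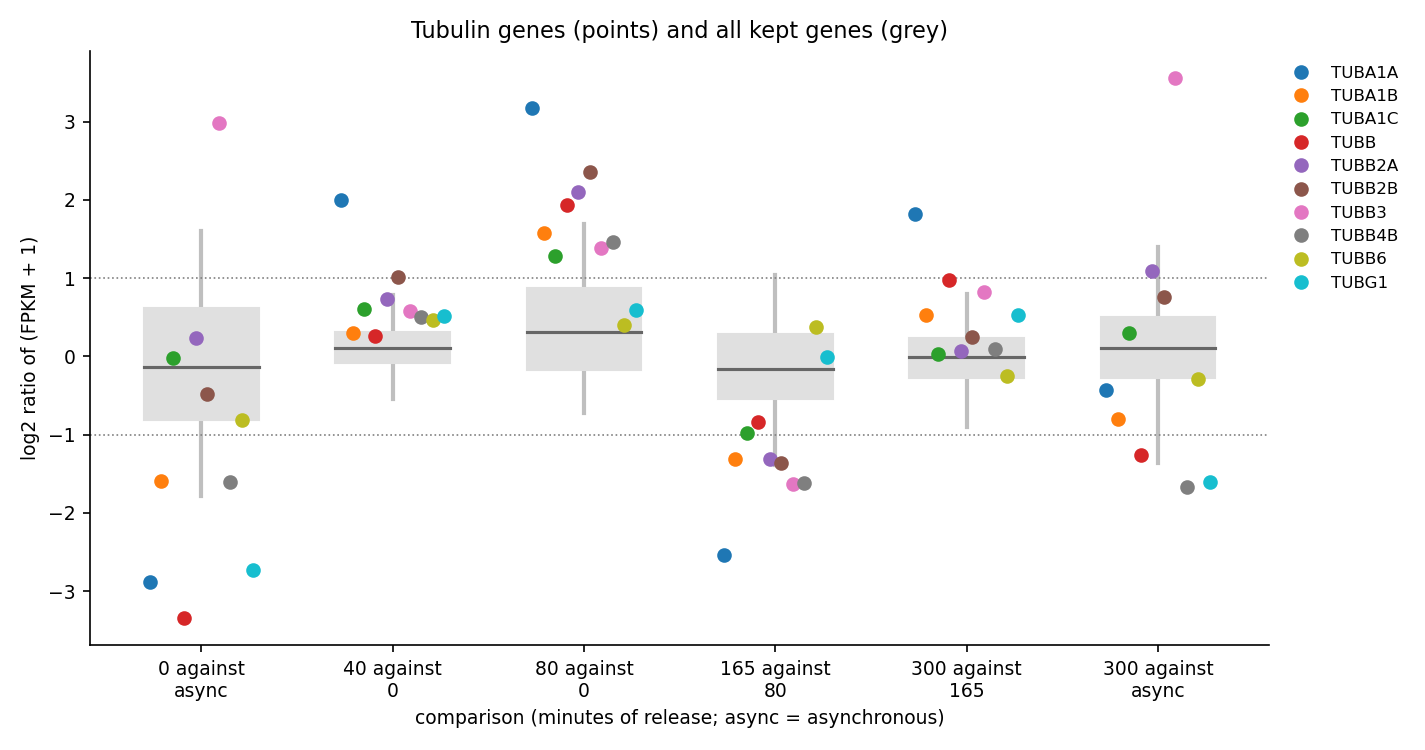
Log2 ratios of (FPKM + 1) for the 10 tubulin genes (coloured points) in 6 comparisons; grey boxes span percentiles 25 to 75 of all 22940 genes, grey lines percentiles 5 to 95, dark lines the median, and the dotted lines mark 2-fold. In 80 against 0 minutes 8 points lie above the upper dotted line, and in 165 against 80 minutes 6 lie below the lower one.

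Between 80 and 165 minutes most members were lower again. TUBA1A was 5.82-fold lower at 165 than at 80 minutes, TUBB3 3.10-fold, TUBB4B 3.07-fold, TUBB2B 2.58-fold, TUBB2A 2.48-fold and TUBA1B 2.47-fold. These 6 of 10 compare with 10.2% of all genes at least 2-fold lower, while 0 were higher (5.44%). TUBA1C, at 1.97-fold lower, was just under that size, and TUBB was 1.78-fold lower. TUBB6 was 1.29-fold higher. TUBG1 was 1.00-fold lower, and its sign turned after either rescaling. The median log2 ratio was -1.31 for the members and -0.16 for all genes.

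The members also differed in when they were lower. From 80 to 105 minutes 0 of 10 were at least 2-fold apart (2.57% of all genes lower and 2.02% higher), and TUBA1B had the largest ratio, 1.87-fold lower. From 105 to 165 minutes 4 of 10 were at least 2-fold lower (5.27%) and 0 higher (2.27%): TUBA1A by 3.80-fold, TUBB3 by 2.46-fold, TUBB4B by 2.44-fold and TUBB2B by 2.30-fold. TUBB2A was 1.88-fold lower in that interval, and TUBG1 1.05-fold lower with a sign that turned after either rescaling. TUBB was 1.63-fold lower from 80 to 105 minutes and 1.09-fold lower from 105 to 165 minutes.

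Late values differed between members. At 300 against 165 minutes 1 of 10 was at least 2-fold higher (3.04% of all genes) and 0 lower (4.10%). The count was 2 after quantile normalization, where TUBB passed 2-fold. In the deposited values TUBA1A was 3.52-fold higher, TUBB 1.97-fold, TUBB3 1.77-fold, TUBG1 1.44-fold and TUBA1B 1.44-fold. TUBB2B, TUBB4B, TUBB2A and TUBA1C were 1.19-fold, 1.06-fold, 1.05-fold and 1.02-fold higher, with the sign of TUBA1C turning at equal column medians. TUBB6 was 1.19-fold lower. At 300 against 80 minutes TUBB4B was 2.88-fold lower, TUBB2A 2.36-fold and TUBB2B 2.17-fold, 3 of 10 against 13.8% of all genes, while 0 were at least 2-fold higher (8.12%). After quantile normalization TUBB4B alone kept that size. TUBB, at 1.11-fold higher, TUBB6, at 1.09-fold higher, and TUBG1, at 1.44-fold higher, were above their 80 minute values.

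At 80 minutes against the asynchronous culture TUBB3 was 20.7-fold higher, TUBB2A 5.02-fold, TUBB2B 3.67-fold and TUBA1C 2.38-fold, 4 of 10 against 19.4% of all genes. TUBG1 was 4.38-fold lower and TUBB 2.66-fold lower, 2 of 10 against 10.8%. TUBA1C was under 2-fold after quantile normalization. How near the tubulin genes came to the cycling level was read at 300 minutes against the asynchronous culture, which shares its asynchronous values with the first comparison. TUBB3 was 11.8-fold higher and TUBB2A 2.12-fold higher, 2 of 10 against 9.84% of all genes. TUBB4B was 3.18-fold lower, TUBG1 3.04-fold and TUBB 2.40-fold, 3 of 10 against 8.57%. TUBA1A was at 74.1% of the asynchronous level, TUBA1B at 57.4%, TUBA1C at 123%, TUBB2B at 169% and TUBB6 at 81.9%. The median log2 ratio was -0.36 for the members and 0.11 for all genes.

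The make-up of labelled beta-tubulin RNA differed between groups, given here as shares of the summed FPKM of the 6 beta genes. At 0 minutes TUBB6 made up 46.9%, TUBB2A 18.3%, TUBB3 13.2%, TUBB2B 9.12%, TUBB4B 8.26% and TUBB 4.17%. In the asynchronous culture the shares were 45.7% for TUBB6, 23.7% for TUBB, 14.0% for TUBB4B, 8.67% for TUBB2A, 7.09% for TUBB2B and 0.903% for TUBB3. TUBB and TUBB3 thus stood in opposite order in these 2 groups. The near copies TUBB2A and TUBB2B reached 30.1% and 18.0% at 80 minutes, when TUBB6 was at 23.8%. By 300 minutes TUBB had 10.6% and TUBB3 11.7%. The sum itself was 2724 FPKM at 0 minutes, 7111 at 80 minutes and 4916 in the asynchronous culture. FPKM are per length of the model, and values here follow the whole span, introns included. The transcripts of the coding starts above had spans of 18561 bases for TUBB6, 12819 for TUBB3 and 2495 for TUBB4B. Exons make up unlike parts of such spans, so shares of different genes are not on one scale. The limits on shared reads above apply as well.

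**Figure D3:**
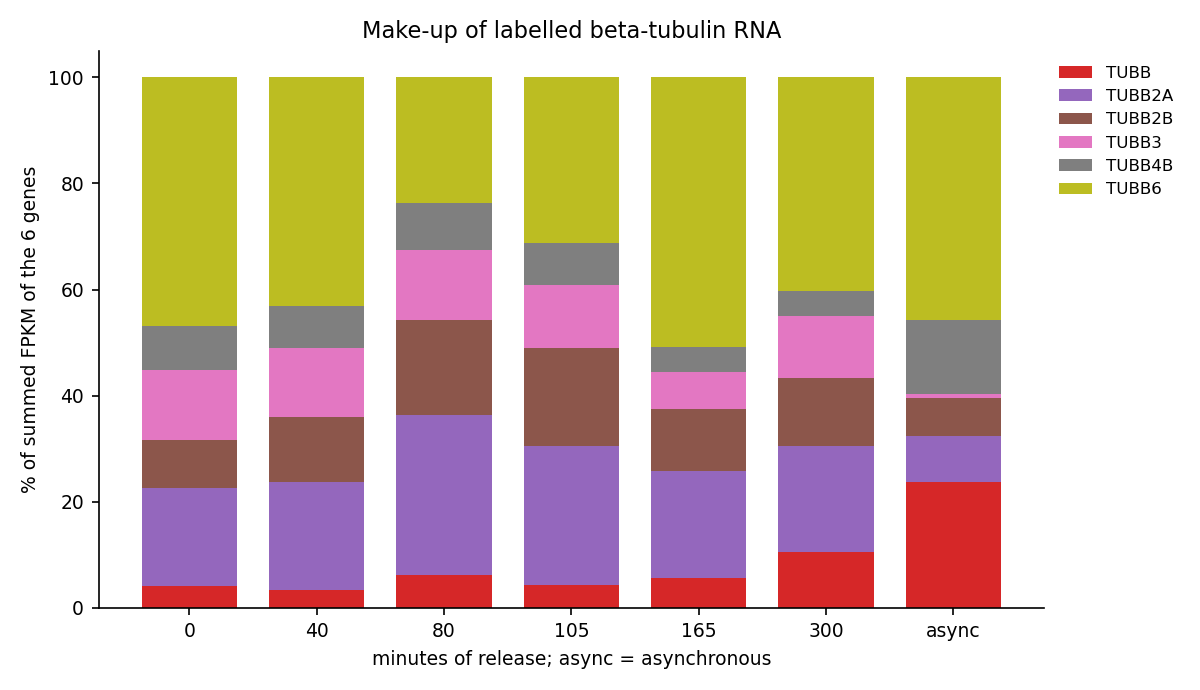
Shares of the 6 beta-tubulin genes in their summed FPKM, in percent, by minutes of release and in the asynchronous culture; each stacked bar is 1 group. TUBB3 takes 13.2% at 0 minutes and 0.903% in the asynchronous culture, and TUBB 4.17% and 23.7%.

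Among the alpha genes, the share of TUBA1C in their summed FPKM was 75.7% at 0 minutes and 49.1% in the asynchronous culture. TUBA1B had 22.9% and 44.2%, and TUBA1A 1.35% and 6.75%. With the downstream model of TUBA1C alone its shares were 83.8% and 61.8%. As for the beta genes, shares of different genes are not on one scale, and the limits on shared reads apply.

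The gene with the lowest ratio at the block, TUBB, also had different values along its length. Its RefSeq transcripts begin at an upstream or at a downstream start 1286 bases apart. Since values follow the span, the stretch between both starts was estimated by subtraction. The spans of GRCh38, 5071 and 3785 bases, were used, whereas hg19 is the build named for the values. This look was chosen after the values were seen. The same step would give TUBA1C a stretch below 0 in most groups. Its ratio of values reached 5.23 at 80 minutes, above its ratio of spans of 4.90. The values of the TUBB stretch are therefore approximate. The stretch came to 262, 289, 676, 504, 536 and 812 FPKM over the release and to 1033 in the asynchronous culture. From the downstream start to the end the values were 92.0, 114, 403, 234, 203, 437 and 1185 FPKM in the same order. The stretch was 2.85-fold above the rest at 0 minutes, 1.68-fold at 80, 2.65-fold at 165 and 1.86-fold at 300 minutes, and at 0.871 of it in the asynchronous culture. The ratio at 0 minutes was 3.27 times the asynchronous one. The background was 195 other genes with starts at least 500 bases apart, 10 FPKM or more and an estimated stretch above 0. Of these, 10 (5.13%) had a value as large, and the median of the 195 was 1.09.

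**Figure D4:**
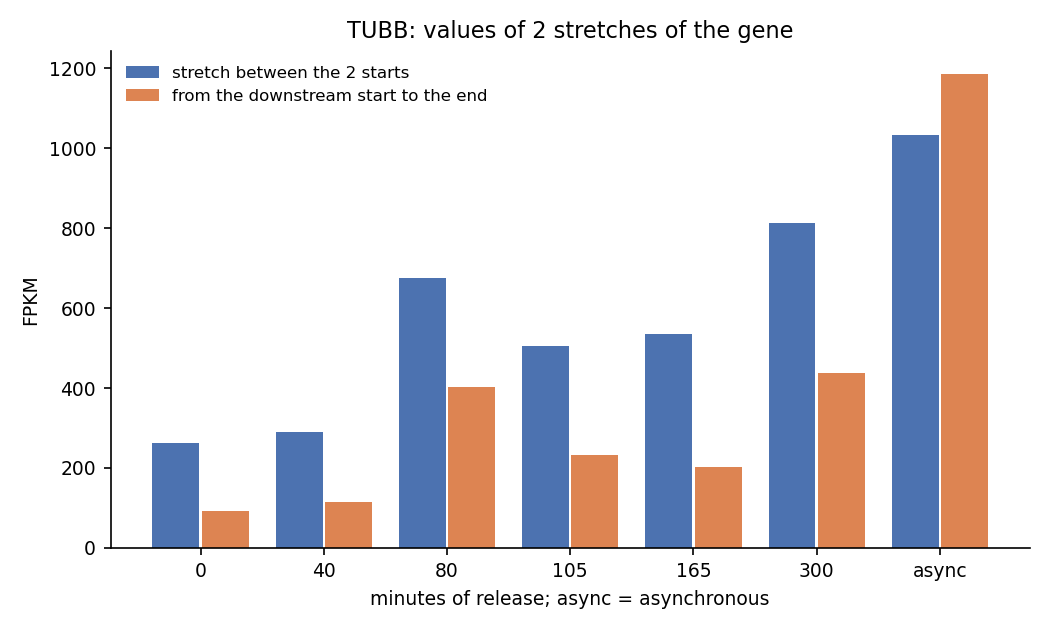
FPKM of 2 stretches of TUBB, between its starts (blue, estimated by subtraction) and from the downstream start to the end (orange), by minutes of release and in the asynchronous culture. Bars start at 0 and each is 1 value. The blue bar is above the orange one at all 6 release times, 262 against 92.0 at 0 minutes, and below it in the asynchronous culture, 1033 against 1185.

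Promoters of 3 beta genes are shown because TUBB2A and TUBB2B had the closest courses of all 45 pairs of members, while TUBB4B was the member furthest below its 80 minute level at 300 minutes. The distance between 2 courses is the Euclidean distance between log2(FPKM + 1) values over the 7 groups, each gene centred on its mean. It was 0.56 for TUBB2A and TUBB2B, 1.05 for TUBA1B and TUBB4B, and 5.61, the largest, for TUBB and TUBB3. TUBB2A and TUBB2B share windows as given above, and the part of shared reads in their likeness was not tested. The 250 bases before the RefSeq start are printed 5′ to 3′ on the strand of the gene (GRCh38.p14). Lines give TUBB2A at chr6:3157545-3157794, minus strand, TUBB2B at chr6:3227654-3227903, minus strand, and TUBB4B at chr9:137241037-137241286, plus strand. Capitals mark the letters CCAAT of the CCAAT box, TATAAA, 1 form of the TATA box, and the cAMP response element (TGACGTCA, or its part ACGTCA). Each was searched on both strands. Only these exact letters were marked, and other forms of an element were left in lower case. The letters GGGCGG and CACGTG were also searched and left unmarked. GGGCGG, found on either strand in 42.6% of RefSeq promoters, occurs 5 times in TUBB2A, 1 time in TUBB2B and 0 times in TUBB4B. CACGTG, found in 6.34%, occurs in none of the 3.
TUBB2A: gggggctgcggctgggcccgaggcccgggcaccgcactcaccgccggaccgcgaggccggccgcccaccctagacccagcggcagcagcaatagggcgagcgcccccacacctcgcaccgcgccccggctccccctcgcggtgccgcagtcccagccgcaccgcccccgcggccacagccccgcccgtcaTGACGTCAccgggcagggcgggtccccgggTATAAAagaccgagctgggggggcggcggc
TUBB2B: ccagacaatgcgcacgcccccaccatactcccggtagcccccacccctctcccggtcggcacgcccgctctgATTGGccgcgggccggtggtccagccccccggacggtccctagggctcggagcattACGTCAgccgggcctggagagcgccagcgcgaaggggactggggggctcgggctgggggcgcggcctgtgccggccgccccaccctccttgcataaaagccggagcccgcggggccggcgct
TUBB4B: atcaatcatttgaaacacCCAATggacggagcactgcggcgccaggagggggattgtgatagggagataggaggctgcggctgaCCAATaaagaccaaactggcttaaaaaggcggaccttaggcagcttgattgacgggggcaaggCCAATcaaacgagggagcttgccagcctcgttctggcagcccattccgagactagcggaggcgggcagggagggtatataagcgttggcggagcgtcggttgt
TUBB2A holds 1 TGACGTCA, found in 1.65% of 35116 RefSeq promoters of 250 bases, and 1 TATAAA, found in 10.7%. TUBB2B holds 1 ACGTCA, a part of the same element, found in 7.10%, and 1 CCAAT, found in 32.0%. TUBB4B holds 3 CCAAT. TUBA1A, at chr12:49189081-49189330, minus strand, holds 2 CCAAT, and TUBG1, at chr17:42609433-42609682, plus strand, holds 1. TUBA1C holds 1 before each of its starts, and TUBB, TUBB3 and TUBB6 each hold 1 before 1 start but not the other. Only TUBA1B and TUBB2A have no CCAAT. TUBB2B and TUBB4B have no match to TATAAA, but other forms of the TATA box were not searched. Near its end the TUBB4B line holds the letters tatataag, and the TUBB2B line holds cataaaag. Whether either serves as a TATA box was not tested. A match is a description of letters, and binding was not measured here.

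Other genes of the tubulin pathway were taken from lists by function. As deposited, their counts are read against the shares of all genes given above. These were 14.1% higher and 19.0% lower for 0 minutes against the asynchronous culture, and 20.1% higher and 2.65% lower for 80 against 0 minutes. Rescaled list counts belong beside the rescaled counts over all 22940 genes. At the block those were 5271 higher and 2464 lower with equal column medians, and 2751 and 2737 after quantile normalization. For 80 against 0 minutes they were 2125 and 1404, and 1630 and 1098. Rescaling the columns moved many of the list counts and medians. The rescaled values of both comparisons are given where they moved by more than 1.5 times or turned sign.

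At the block, 2 of 12 other tubulin genes stood at least 2-fold above the asynchronous culture and 5 below it, against 3 above and 2 below with equal column medians and 1 above and 2 below after quantile normalization. The median log2 ratio was 0.08, which was 0.43 with equal column medians and below 0 after quantile normalization. TUBG2, the second gamma-tubulin gene, was 2.82-fold lower. TUBE1, the epsilon-tubulin gene, was 2.55-fold lower and under 2-fold after either rescaling. TUBB1, the beta-tubulin gene of platelets, was 3.92-fold higher at 20.2 against 4.41 FPKM. For 80 against 0 minutes 3 were higher (0 with equal column medians, 1 after quantile normalization) and 0 lower, with a median of 0.32 that was below 0 with equal column medians and 0.092 after quantile normalization. TUBA4A and TUBE1 were 2.21-fold and 2.10-fold higher there, both under 2-fold after either rescaling.

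Among 11 genes for the autoregulation factors, none was at least 2-fold above the asynchronous culture at the block and 2 were below it, 1 under either rescaling. The median was -0.67, which became -0.32 with equal column medians and -0.038 after quantile normalization. For 80 against 0 minutes 2 were higher (1 with equal column medians, 0 after quantile normalization) and 0 lower, with a median of 0.72 that was 0.31 with equal column medians and -0.15 after quantile normalization. TTC5 stood at 54.2 FPKM at 0 minutes, 103.7 at 80 minutes and 88.3 in the asynchronous culture. SCAPER stood at 26.0, 18.5 and 82.3 FPKM, 3.09-fold lower at 0 minutes than in that culture. The CCR4-NOT subunit gene CNOT11 was 2.40-fold lower there, and under 2-fold after either rescaling. CNOT8, a deadenylase subunit, was 2.76-fold higher at 80 than at 0 minutes, and under 2-fold after quantile normalization. CNOT6L, another, was 2.201-fold higher there, and under 2-fold after either rescaling.

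The 20 genes for tubulin folding encode the prefoldin and CCT chaperones and the cofactors that join the dimer. Compared with the asynchronous culture, 0 were higher and 2 lower at the block by 2-fold, 0 and 0 under either rescaling. For 80 against 0 minutes 3 were higher and 0 lower, and again 0 under either rescaling. The medians of -0.49 and 0.48 were -0.13 and 0.082 with equal column medians, and both turned sign after quantile normalization. The cofactor genes TBCC and TBCB were 2.36-fold and 2.08-fold higher at 80 than at 0 minutes, and TBCD was 2.07-fold lower at the block.

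Genes for the gamma-tubulin ring complex, its anchors and the augmin complex numbered 20. At the block 9 of them were at least 2-fold below the asynchronous culture, 8 under either rescaling, and 0 above it. The median was -0.98, which became -0.63 with equal column medians and -0.37 after quantile normalization. TUBG1 lay in the same direction, at a log2 ratio of -2.72. The ring component genes MZT2A and TUBGCP3 were 4.47-fold and 4.44-fold lower. For 80 against 0 minutes 6 were higher, 1 under either rescaling, and 0 lower, and the median of 0.60 was 0.20 with equal column medians and turned sign after quantile normalization. The augmin gene HAUS3 was 2.95-fold higher there at 1191 FPKM, and under 2-fold after quantile normalization.

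Enzymes that modify tubulin were represented by 16 genes. At the block 2 were at least 2-fold higher and 1 lower, against 3 and 0 under either rescaling, and for 80 against 0 minutes 1 was higher and 0 lower. The medians of -0.34 and 0.39 turned sign under either rescaling. SIRT2, a tubulin deacetylase among other roles, was 3.73-fold higher at the block, and SVBP, the partner of the detyrosinating vasohibins, was 3.64-fold higher at 80 than at 0 minutes. Of 24 genes for proteins that bind or sever microtubules, 0 were higher and 4 lower at the block, with 2 lower under either rescaling and 1 or 2 higher, and 5 were higher at 80 than at 0 minutes, 1 under either rescaling, and 0 lower. Their medians of -0.42 and 0.55 were -0.068 and 0.15 with equal column medians and turned sign after quantile normalization. MAP1A, a microtubule-associated protein gene, was 6.26-fold lower at the block. KATNA1, the severing subunit of katanin, was 3.49-fold higher at 80 than at 0 minutes.

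For 165 against 80 minutes, where 6 of 10 members and 10.2% of all genes were at least 2-fold lower, the counts lower were 0 of 20 folding genes, 0 of 20 ring complex genes, 0 of 11 autoregulation genes, 2 of 16 enzymes, 3 of 24 binding proteins and 2 of 12 other tubulins. The last 3 lists lie near the share of all genes. After quantile normalization the enzymes had 1 in place of 2, and the other list counts and that of the members were as deposited under both rescalings. Differences between these counts were not tested.

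The genes with courses most like a member were taken over the 7 groups from 17261 genes with a mean of at least 10 FPKM. Nearest to TUBA1C, the alpha gene with the highest mean, were HYPK at a distance of 0.18, TRIM39 and JPT1 at 0.22, SLC20A1 at 0.23 and P2RX5-TAX1BP3 at 0.24. Nearest to TUBB6, the beta gene with the highest mean, were SAE1P1 at 0.10, DNAAF5 at 0.19, and TM9SF1, HTT and ZBTB7A at 0.20. Among the genes nearest to TUBG1 were SDC2 and ANKMY1 at 0.39, LYZ at 0.40 and CTDSPL at 0.48, each further away than the genes named for TUBA1C and TUBB6.

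Markers of cell types were read beside these values. All 10 hepatocyte markers were at 10 FPKM or more in every group, with a sum of 2425 FPKM at 0 minutes and 17309 in the asynchronous culture. Of 12 neuron markers, 7 to 9 were under 10 FPKM in each group. Their sum was 402 FPKM at 0 minutes, 648 at 105 minutes, 257 at 300 minutes and 271 in the asynchronous culture, and from 0 to 105 minutes most of it was SNAP25, which encodes a synaptic membrane fusion protein and stood at 253 FPKM at 0 minutes, 512 at 105 minutes and 55.8 in the asynchronous culture. MAP2 and SYT1 went the other way, at 53.5 and 28.2 FPKM at 0 minutes against 114 and 71.1 in the asynchronous culture, where MAP2 was the highest of the list. The neurofilament gene NEFL was listed at 0 in 3 groups and at 0.724 FPKM at most, and RBFOX3 and DCX were at 5.44 and 4.50 FPKM at most. The part of this list in the levels of TUBB3, TUBA1A and TUBB2B was not tested. Blood marker sums were 137 to 388 FPKM and those of stroma or endothelium 59.5 to 132 FPKM.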

How the data were processed

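The authors deposited a table of FPKM by RefSeq transcript whose 7 columns are groups, not libraries, per the file headers. Bowtie2 2.2.9, TopHat, bedtools, bcl2fastq and the build hg19 are named in the submitters' processing notes. Their use, the counting, its strand setting, any background subtraction and the pooling of libraries are not given there. Low values did not fall in whole-read steps, so depth is unknown and no counting interval is given.

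Transcripts were matched to symbols through a RefSeq table (GRCh38.p14; 97.8% matched). A gene's value is the mean of the distinct values of its transcripts. Ratios are log2(FPKM + 1), genes needed 1 FPKM in 3 groups, and 2-fold was counted. The planned limma test needs values per library and could not be run. Coding starts are from GENCODE 29 and promoters from RefSeq. Named list genes were the highest and lowest ratios of each list at 10 FPKM or more, and neighbours were the 5 nearest genes, of which 1 is not reported here. Members and lists were chosen with earlier results of these data known. Scripts used Python 3.11.15, pandas 2.3.3, numpy 2.4.6 and Biopython 1.88, and the counts were tested on simulated data.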

Additional observations from a re-analysis of the deposited data

How the results depend on the processing

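Each ratio of the 10 genes was recomputed over 10 comparisons, 100 values in all. All 100 kept their direction and their side of 2-fold with pseudocounts of 0.1 and 5 FPKM, with the highest transcript value per gene, with a 10 FPKM filter and with no filter. The scaling of columns did move results. The number of members at least 2-fold apart at 40 against 0 minutes was 2 as deposited and 1 with equal column medians and after quantile normalization. At 80 against 0 minutes it went from 8 to 4, and at 300 against 80 minutes from 3 to 1, both after quantile normalization. For 0 minutes against the asynchronous culture, the log2 ratio of TUBA1C turned to 0.33 with equal medians and 0.48 after quantile normalization, and that of TUBB2B to 0.16 after quantile normalization. TUBB6 turned to -0.38 at 80 against 0 minutes after quantile normalization. TUBG1 turned to 0.075 and 0.072 at 165 against 80 minutes and to 0.023 in both cases at 165 against 105 minutes, with equal medians and after quantile normalization, and TUBA1C to -0.026 at 300 against 165 minutes with equal medians. Quantile normalization took 9 of the 100 values under 2-fold and TUBB at 300 against 165 minutes past it, so that the count there went from 1 to 2. Equal medians took 3 under: TUBB2B at 40 against 0 minutes, and TUBA1C and TUBB3 at 80 against 0 minutes. Settings for the pathway lists were added after the data were seen. For 0 minutes against the asynchronous culture, list medians turned to -0.0046 (other tubulins), 0.11 (folding), 0.093 (enzymes) and 0.12 (binding proteins) after quantile normalization, and to 0.0086 (enzymes) with equal medians. For 80 against 0 minutes they turned to -0.15 (autoregulation), -0.29 (folding), -0.098 (ring complex), -0.19 (enzymes) and -0.14 (binding proteins) after quantile normalization, and to -0.042 (other tubulins) and -0.0064 (enzymes) with equal medians. The cause was not tested. No paired analysis was possible because the table has 1 value per group, and for the same reason no library could be left out. The asynchronous culture and the release groups rest on 1 value each, with depth unknown.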
